A study of Mus musculus with 10 samples.

Results

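The muscle actins, the tropomyosins and the proteins that cap the thin filament at its pointed end were followed in the pinna prominence, the tissue that forms the outer ear, of mouse embryos at E14.5. They were 9 genes, *Acta1*, *Actc1*, *Tpm1*, *Tpm2*, *Tpm3*, *Tmod1*, *Tmod4*, *Lmod2* and *Lmod3*, found by symbol among the 53465 genes of a table of raw read counts. Whole pinna prominences were micro-dissected for bulk RNA-seq from 5 wild-type (WT) embryos and 5 *mEC1* dup/dup embryos (dup/dup for short), whose libraries are labelled knock-in. The line carries an extra copy of mEC1, an enhancer near the homeobox gene *Hmx1*, on each allele, so it has 4 copies where WT has 2. Embryos are numbered by the replicate numbers of the labels. The extra copy was inserted with CRISPR/Cas9, every cell of the embryo carries it, and both genotypes were kept on a C57BL/6 J background. Per the study, replicates of its mouse work came from siblings of different litters, and the litter of each library is not given.

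The thin filament of striated muscle is a polymer of actin with tropomyosin lying along it and troponin bound at intervals, and it slides past the myosin thick filament when muscle contracts. *Acta1* encodes skeletal muscle actin and *Actc1* encodes cardiac actin, which embryonic skeletal muscle also makes and later replaces to a large extent with skeletal actin. *Tpm1*, *Tpm2* and *Tpm3* encode tropomyosins, and each gene also makes isoforms for cells other than muscle. Tropomodulins (*Tmod1*, *Tmod4*) cap the pointed end of the filament, and leiomodins (*Lmod2*, *Lmod3*) nucleate actin and lengthen the filament there. The pinna holds striated auricular muscles, and tropomyosins and *Tmod1* are also made by cells other than muscle.

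The total count was 17536112 to 18265354 per WT library and 17461544 to 18462073 per dup/dup library, and the 9 genes together held 0.24% to 0.319% of the counts in WT and 0.191% to 0.25% in dup/dup. *Hmx1* had 376 to 526 counts in WT and 976 to 1356 in dup/dup, and was thus higher in every library labelled knock-in. The groups also differed in measures other than the genotype. *Xist*, which is expressed in female cells, had at most 5 counts in each WT library, whereas dup/dup embryos 1 to 5 had 12812, 19040, 18165, 2096 and 0. The embryonic globins made up 21.3% ± 2.07 of all globin reads in WT and 34.3% ± 1.22 in dup/dup (SD, n = 5 each). The part of both measures in the differences below cannot be told apart from that of the genotype. In whole tissue, fewer muscle cells and less RNA per muscle cell cannot be told apart either.

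Of the 9 genes, *Acta1* and *Lmod2* were lower in dup/dup. None was higher by edgeR, DESeq2 or limma-voom, nor at an unadjusted p under 0.05 from edgeR, at which 5 of the 9 were lower, against 9.08% of all genes tested (7.1% were higher). To be called, a gene needed an adjusted p no higher than 0.05 (Benjamini-Hochberg, over the 16426 genes tested) and an average log2 CPM no lower than 1, where CPM is the count scaled to the size of its library by TMM. By this rule 1.81% of all genes tested were lower and 0.834% were higher. All 9 genes passed the filter on low counts, and 8 had a log2 fold change below 0, as had 51.2% of all genes tested. Their median log2 fold change was -0.345, against -0.004 over all genes. For *Acta1* and *Lmod2* the highest dup/dup embryo was below the lowest WT embryo, which held for 2.75% of all genes tested; the reverse, all dup/dup embryos above all WT embryos, held for none of the 9 and for 2.33% of all genes.

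The promoters of both actins are shown because the actins were the most abundant of the 9 genes per length and differed in how far they moved. Each window runs from 250 bases before to 50 bases after the gene start in RefSeq (GRCm38.p6), and each matched GRCm39 exactly and once. The *Acta1* window is at chr8:124621465-124621764 on the minus strand and the *Actc1* window is at chr2:113883307-113883606 on the minus strand, both inside the longer gene models of GENCODE. Capitals mark the sequence TATAAA and the CArG box, the site to which serum response factor is known to bind in muscle genes.
Skeletal actin promoter (*Acta1*): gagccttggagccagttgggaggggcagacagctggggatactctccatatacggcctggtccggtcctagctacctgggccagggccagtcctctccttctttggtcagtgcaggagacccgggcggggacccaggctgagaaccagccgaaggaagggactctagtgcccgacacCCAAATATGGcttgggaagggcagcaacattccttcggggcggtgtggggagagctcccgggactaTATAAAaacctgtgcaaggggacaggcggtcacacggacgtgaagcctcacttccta
Cardiac actin promoter (*Actc1*): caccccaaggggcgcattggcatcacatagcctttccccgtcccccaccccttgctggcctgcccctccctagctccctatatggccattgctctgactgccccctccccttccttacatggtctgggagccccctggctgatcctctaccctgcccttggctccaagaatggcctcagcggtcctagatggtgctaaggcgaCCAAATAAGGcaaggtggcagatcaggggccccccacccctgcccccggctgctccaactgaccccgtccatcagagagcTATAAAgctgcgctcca

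All motifs were searched on both strands. *Acta1* had CCAAATATGG with its first base at -73 and *Actc1* had CCAAATAAGG at -47, counted from the RefSeq gene start. TATAAA began at -7 in *Acta1* and at 34 in *Actc1*, on the transcribed side of the annotated start. These positions hold only for the annotated starts, whose accuracy was not tested, so they are not compared between the genes. RefSeq windows were found for 8 of the 9 genes, all but *Lmod3*, and *Tpm3* had 2, which gave 9 windows. The CArG box was in 2 of these 9 windows and in 1.63% of 32851 windows of the same length. TATAAA was also in 2 of the 9, against 13.6% of all windows, and the E-box CANNTG was in 8 of the 9, against 72.3%. The MEF2 site was in none of the 9 and in 3.19% of all windows. *Lmod2*, *Acta1* and *Tmod4* each held 2 E-boxes and *Actc1* held 1. A match says only that these letters are in the window.

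*Acta1* (ENSMUSG00000031972, chromosome 8, 124618501 to 124623661, minus strand, GRCm39) fell by 45.8%. It had 547, 496, 495, 603 and 751 CPM in WT embryos 1 to 5 and 365, 289.7, 289, 233 and 391 CPM in dup/dup embryos 1 to 5. All dup/dup embryos were thus under all WT embryos. Means were 578.5 ± 106 CPM for WT and 314 ± 64.0 CPM for dup/dup (SD, n = 5 each). By the quasi-likelihood test of edgeR this is a log2 fold change of -0.88 (SE 0.14, 95% interval -1.19 to -0.58, adjusted p = 0.00804). *Acta1* kept its call in all 10 fits that each left out 1 embryo, with log2 fold changes from -0.98 to -0.77.

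*Actc1* (ENSMUSG00000068614, chromosome 2, 113876266 to 113884043, minus strand) did not pass the test. It had 736, 656, 708, 779 and 1015 CPM in WT embryos 1 to 5 and 813, 597.5, 625, 530 and 769 CPM in dup/dup embryos 1 to 5. The groups overlapped, with dup/dup embryos 1 and 5 inside the WT range. On the log2 scale the fold change was -0.22 (95% interval -0.50 to 0.05, edgeR's adjusted p = 0.433), and -0.11 without WT embryo 5.

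*Acta1* and *Actc1* deviated together from embryo to embryo. Both were highest in WT embryo 5, and both were lowest in dup/dup embryo 4. Over the 10 embryos, the deviations of their log2 CPM from the genotype means had a Pearson correlation of 0.968, a description over embryos that share their libraries.

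**Figure D1:**
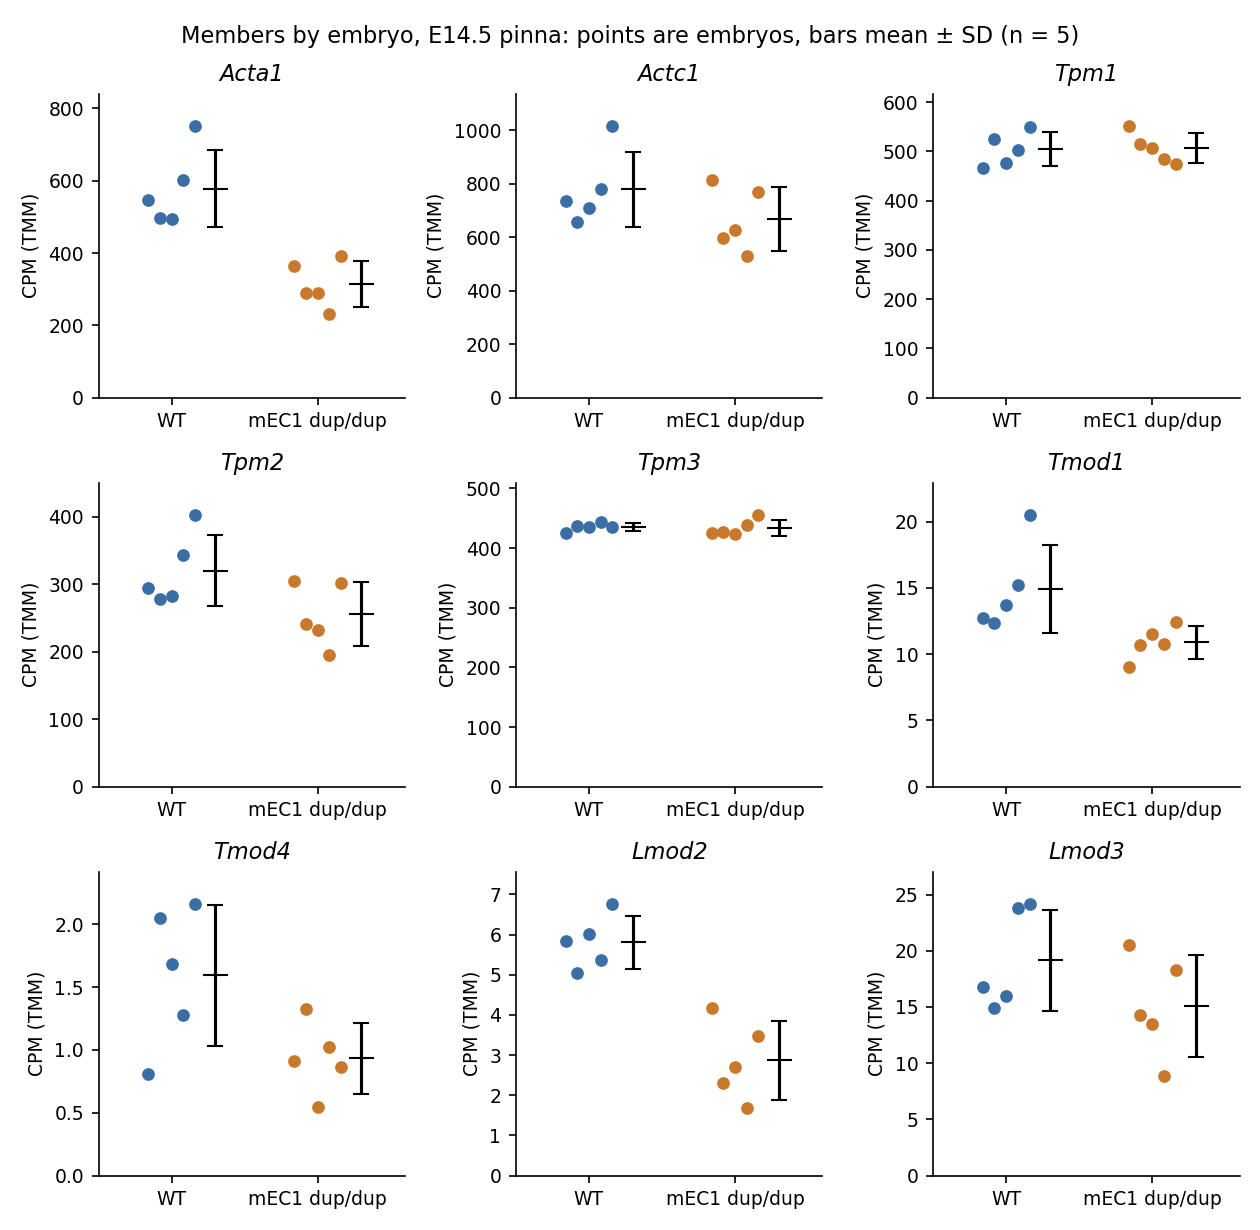
CPM after TMM scaling (vertical axes, from 0) of the 9 genes in WT and dup/dup embryos; points are embryos, embryo 1 to 5 from left to right, and bars give the mean and SD of 5. For *Acta1* and *Lmod2* all dup/dup points lie below all WT points, while the ranges of *Tpm1* and *Tpm3* overlap between the genotypes.

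The balance between the actins was a tighter measure than either level. *Acta1* gave 42.6%, 43.05%, 41.2%, 43.65% and 42.5% of the counts on *Acta1* and *Actc1* together in WT embryos 1 to 5. In dup/dup embryos 1 to 5 it gave 31.0%, 32.65%, 31.6%, 30.5% and 33.7%. The groups were thus separated by a gap wider than the range within either, although the *Acta1* level itself varied more than 1.5-fold within each genotype. Mean shares were 42.6% ± 0.922 for WT and 31.9% ± 1.29 for dup/dup (SD, n = 5 each), a difference of -10.7 percentage points. The difference passed a two-sided exact permutation test over all arrangements of the 10 embryos (p = 0.00794, the smallest they can give, and 0.0238 after Benjamini-Hochberg adjustment over the 6 shares tested among the 9 genes).

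Per length of exon, *Acta1* was the most abundant of the 9 genes in WT and *Actc1* was in dup/dup. *Acta1* had 156 ± 28.6 RPKM (SD, n = 5) in WT and 84.4 ± 17.2 RPKM in dup/dup, where RPKM is CPM per kilobase of the gene's merged exons. *Actc1* had 134.5 ± 24.0 RPKM in WT and 115 ± 20.6 RPKM in dup/dup. The mean levels of the actins in WT were closer together than their SDs, but within embryos the order was the same in all 5: per length, *Acta1* gave 52.2% to 54.7% of the pair in WT and 40.65% to 44.2% in dup/dup. These levels use the merged exon lengths of GENCODE M39, 3715 bases for *Acta1* and 5792 for *Actc1*. The order in WT depends on these lengths. In CPM *Actc1* was above *Acta1* in both genotypes (778.9 against 578.5 in WT and 666.9 against 313.6 in dup/dup). Actins are similar in sequence, so reads shared between them could have been split or dropped by the counting.

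The tropomyosin genes *Tpm1*, *Tpm2* and *Tpm3* had smaller log2 fold changes than *Acta1*, and none passed the test. *Tpm2* (ENSMUSG00000028464, chromosome 4, 43514697 to 43524949, minus strand), which encodes beta-tropomyosin, had 295, 279, 283, 344 and 403 CPM in WT embryos 1 to 5. It had 306, 241, 232, 196 and 302 CPM in dup/dup embryos 1 to 5. Embryos 1 and 5 of dup/dup lay inside the WT range, as they did for *Actc1*. The fitted log2 fold change was -0.33 (SE 0.13, 95% interval -0.60 to -0.05, edgeR's adjusted p = 0.216).

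*Tpm1* (ENSMUSG00000032366, chromosome 9, 66929870 to 66956953, minus strand), which encodes alpha-tropomyosin, had 466, 526, 476, 504 and 550.2 CPM in WT embryos 1 to 5. It had 552, 515, 507, 484 and 474 CPM in dup/dup embryos 1 to 5. The ranges nearly coincided. Its log2 fold change was 0.00 to 2 decimals, with a 95% interval of -0.11 to 0.12 and an adjusted p of 0.978 from edgeR.

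*Tpm3* (ENSMUSG00000027940, chromosome 3, 89979949 to 90008226, plus strand), whose products include slow muscle and cytoplasmic tropomyosins, was the steadiest of the 9 genes. It had 425, 437, 435.5, 444 and 434.5 CPM in WT embryos 1 to 5 and 425, 427, 423, 438 and 455 CPM in dup/dup embryos 1 to 5. Its 95% interval of -0.07 to 0.06 on the log2 scale was the narrowest among the 9 (edgeR's adjusted p = 0.963). Its sign and that of *Tpm1* changed between alternative fits. The related copy *Tpm3-rs7* held 9309 counts over the 10 libraries, against 78371 on *Tpm3*, and reads could have been split between them.

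Per length, the tropomyosins ran in the order *Tpm2* (75.7 ± 12.4 RPKM, SD, n = 5), *Tpm1* (62.5 ± 4.29 RPKM) and *Tpm3* (53.6 ± 0.827 RPKM) in WT. In dup/dup *Tpm1* (62.7 ± 3.75 RPKM) came before *Tpm2* (60.3 ± 11.2 RPKM) and *Tpm3* (53.4 ± 1.65 RPKM). *Tpm1* and *Tpm2* differed by less than the SD of *Tpm2* in dup/dup. The order depends on the merged exon lengths, 4237 bases for *Tpm2*, 8077 for *Tpm1* and 8117 for *Tpm3*. In CPM *Tpm2* was the lowest of these genes in both genotypes. *Tpm1*, *Tpm3* and *Tpm2* had means of 504.6, 435.1 and 320.6 CPM in WT and 506.3, 433.7 and 255.5 CPM in dup/dup. Of the counts on the 3 genes, *Tpm2* took 25.3% ± 2.58 (SD, n = 5) in WT and 21.3% ± 2.90 in dup/dup, a difference that did not pass the two-sided exact permutation test (p = 0.0556, adjusted 0.111). The *Tpm1* share was 40.05% ± 1.34 in WT and 42.4% ± 2.18 in dup/dup (exact permutation test, p = 0.111, adjusted 0.167), and the *Tpm3* share was 34.6% ± 2.00 and 36.4% ± 2.17 (exact permutation test, p = 0.238, adjusted 0.286). Gene counts do not separate the muscle isoforms of these genes from the cytoplasmic ones.

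The tropomodulins had lower mean levels in dup/dup, and neither *Tmod1* nor *Tmod4* passed the test. *Tmod1* (ENSMUSG00000028328, chromosome 4, 46038541 to 46116036, plus strand), the tropomodulin of red blood cells, heart and embryonic muscle, had 12.7, 12.3, 13.7, 15.2 and 20.5 CPM in WT embryos 1 to 5. It had 9.03, 10.7, 11.5, 10.8 and 12.4 CPM in dup/dup embryos 1 to 5. Only dup/dup embryo 5, the highest, reached into the WT range, and it passed just the lowest WT embryo. This gave a log2 fold change of -0.45 (SE 0.14, 95% interval -0.75 to -0.15, edgeR's adjusted p = 0.107). It was called with DESeq2's Wald test (adjusted p = 0.0377).

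*Tmod1* shared 24.4% of its exon bases with *Tstd2* on the other strand. The library kits named for this study do not mark strand, so reads from the shared bases cannot be assigned to either gene. *Tstd2* held 6668 counts over the 10 libraries and *Tmod1* held 2325. *Tstd2* was at 35.4 ± 2.02 CPM in WT and 38.5 ± 1.34 CPM in dup/dup (SD, n = 5 each; log2 fold change 0.12, edgeR's adjusted p = 0.266), and the part of shared reads in the *Tmod1* values was not tested. Beside *Tmod1*, the 14 erythroid genes measured had summed levels of 1312 to 2090 CPM in WT and 1488 to 2994 CPM in dup/dup, with *Hbb-y* and *Hba-x* higher and *Hba-a2* lower, and their part in the *Tmod1* values was not tested.

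*Tmod4* (ENSMUSG00000005628, chromosome 3, 95031645 to 95036523, plus strand), a tropomodulin of skeletal muscle, was the least abundant of the 9 genes. It had 14, 37, 30, 23 and 39 counts in WT embryos 1 to 5 and 16, 24, 10, 19 and 16 counts in dup/dup embryos 1 to 5. The lowest WT embryo lay among the dup/dup embryos. Its log2 fold change of -0.77 had a 95% interval of -1.42 to -0.12 (edgeR's adjusted p = 0.216), and its average log2 CPM of 0.46 was under the minimum for a call. *Tmod4* gave 9.68% ± 3.16 (SD, n = 5) of the counts on *Tmod1* and *Tmod4* in WT and 7.98% ± 2.52 in dup/dup. The difference did not pass the two-sided exact permutation test (p = 0.373).

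*Lmod2* fell by 50.6%, and *Lmod3* did not pass the test. *Lmod2* (ENSMUSG00000029683, chromosome 6, 24597685 to 24605753, plus strand), a leiomodin of cardiac and skeletal muscle, had 5.84, 5.04, 6.005, 5.37 and 6.76 CPM in WT embryos 1 to 5. It had 4.17, 2.315, 2.715, 1.67 and 3.465 CPM in dup/dup embryos 1 to 5, all below the lowest WT embryo. These values rest on 91 to 122 counts per WT library and 31 to 73 per dup/dup library. The test of edgeR gave a log2 fold change of -1.02 (SE 0.21, 95% interval -1.47 to -0.57, adjusted p = 0.0224). The call was lost when WT embryo 1 or 5 or dup/dup embryo 2 or 3 was left out (adjusted p = 0.0529, 0.0509, 0.0703 and 0.0715), with log2 fold changes from -1.19 to -0.87 over all 10 such fits.

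*Lmod3* (ENSMUSG00000044086, chromosome 6, 97213986 to 97230210, minus strand), a leiomodin of skeletal muscle whose loss causes nemaline myopathy, had 16.8, 14.9, 16, 23.8 and 24.15 CPM in WT embryos 1 to 5. It had 20.5, 14.3, 13.5, 8.845 and 18.25 CPM in dup/dup embryos 1 to 5, and the groups overlapped broadly. The log2 fold change was -0.345 (95% interval -0.79 to 0.10, edgeR's adjusted p = 0.453), and -0.20 without dup/dup embryo 4. *Lmod2* gave 25.8%, 25.3%, 27.3%, 18.4% and 21.9% of the counts on both leiomodins in WT embryos 1 to 5 and 16.9%, 13.9%, 16.8%, 15.9% and 15.96% in dup/dup embryos 1 to 5. The shares did not overlap. The mean was 23.7% ± 3.57 (SD, n = 5) in WT and 15.9% ± 1.20 for dup/dup (exact permutation test, two-sided, p = 0.00794, the smallest possible, adjusted 0.0238). As with the actins, the levels of this pair thus did not move in proportion.

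Per length, the caps were far below the filament genes. *Lmod3* was at 4.64 ± 1.09 RPKM (SD, n = 5), *Tmod1* at 2.79 ± 0.622, *Lmod2* at 2.425 ± 0.274 and *Tmod4* at 0.52 ± 0.183 RPKM in WT. In dup/dup the order was the same, with *Lmod3* at 3.66 ± 1.096, *Tmod1* at 2.04 ± 0.233, *Lmod2* at 1.20 ± 0.408 and *Tmod4* at 0.3045 ± 0.0918 RPKM. *Tmod1* and *Lmod2* differed by less than the SD of *Tmod1* in WT.

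**Figure D2:**
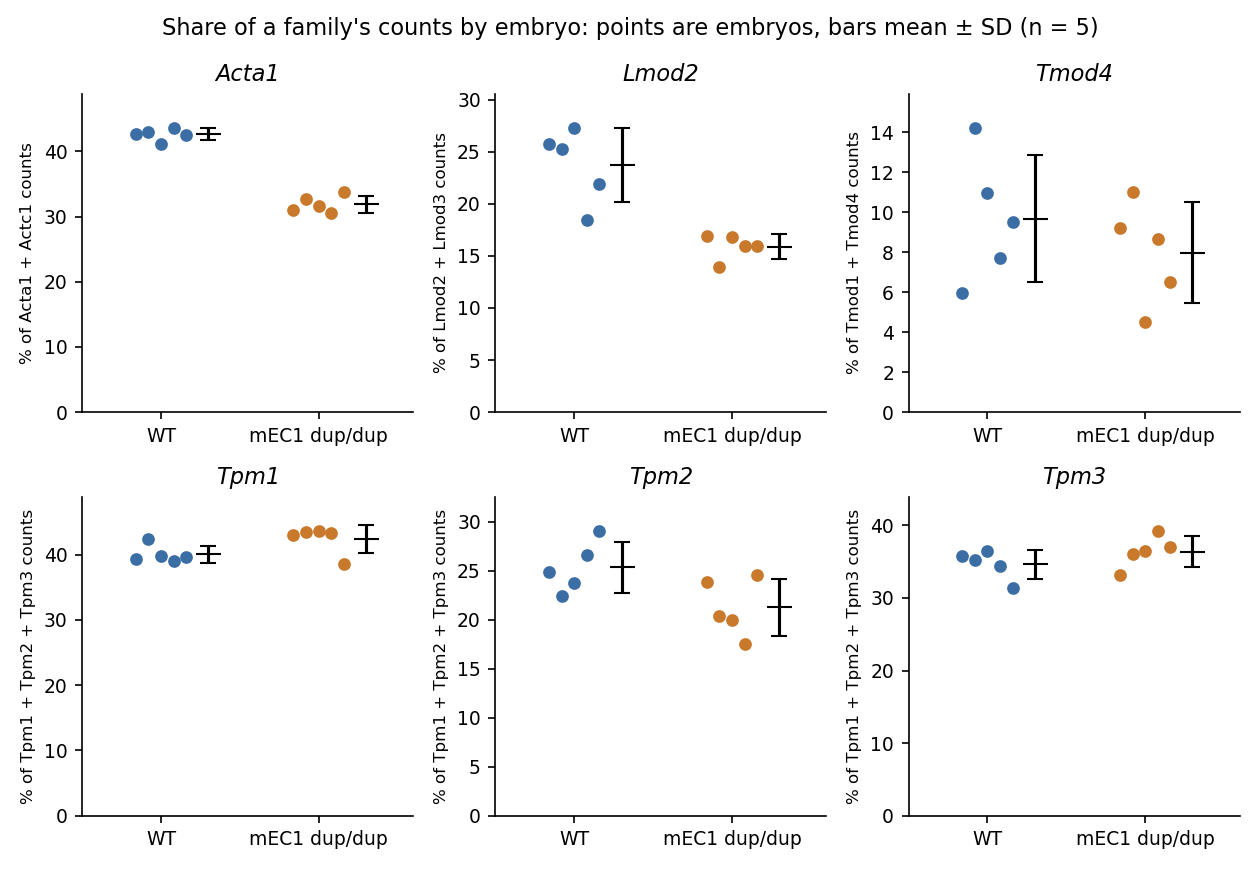
Share of a gene in the counts of its family in each embryo (vertical axes, % from 0; points are embryos, embryo 1 to 5 from left to right; bars give the mean and SD of 5). The *Acta1* shares of 41.2% to 43.65% in WT and 30.5% to 33.7% in dup/dup are apart, as are the *Lmod2* shares, while the other 4 overlap.

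A measure of muscle level in each embryo was the mean of 6 genes of myoblasts and developing muscle fibres, *Myod1*, *Myog*, *Cdh15*, *Chrna1*, *Chrnd* and *Chrng*, none of which was called by edgeR, DESeq2 or limma-voom or had an unadjusted p under 0.05 from edgeR. Their mean log2 CPM was 5.28 ± 0.28 (SD, n = 5) in WT and 5.24 ± 0.25 in dup/dup, with ranges of 5.01 to 5.73 and 4.92 to 5.52. The 6 belong to a list of 15 myogenic genes, whose mean log2 CPM was 4.38 ± 0.22 in WT and 4.20 ± 0.26 in dup/dup. They were chosen with earlier results of these data known. They leave out *Myf6*, *Pax3* and *Des*, the 3 of the 15 that were lower at an unadjusted p under 0.05 from edgeR. The mean of the 6 was close in both genotypes, so as a covariate it could shift the fold changes little and mostly changed their SE. Within genotypes, the deviations of *Actc1* followed this mean most closely of the 9 genes (Pearson correlation 0.988 over 10 embryos). The correlation was 0.973 for *Tpm2*, 0.966 for *Acta1*, 0.896 for *Lmod3* and 0.799 for *Lmod2*. It was lower for *Tmod1* (0.572), *Tpm1* (0.48), *Tpm3* (0.157) and *Tmod4* (0.146).

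With this mean as a covariate in the edgeR fit, 4 of the 9 genes were called lower, against 2.26% of all genes tested in that fit. *Acta1* had a log2 fold change of -0.86 (SE 0.046, edgeR's adjusted p = 4.76e-06), where the SE without the covariate was 0.141. *Lmod2* had -1.02 (SE 0.16, edgeR's adjusted p = 0.00528). *Tpm2* (-0.30, edgeR's adjusted p = 0.002) and *Actc1* (-0.20, edgeR's adjusted p = 0.00919) were called in this fit and not in the fit without it. *Tmod1* (-0.41, adjusted p = 0.0904), *Lmod3* (-0.325, adjusted p = 0.142) and *Tmod4* (-0.76, adjusted p = 0.242) remained without a call, as did *Tpm1* and *Tpm3*, whose log2 fold changes were 0.01 and 0.00. The outcome depended on which myogenic genes were used. With the mean of all 15 as covariate, 2 of the 9 genes were called lower, against 1.6% of all genes tested. *Acta1* had -0.68 (SE 0.045, edgeR's adjusted p = 4.75e-05) and *Lmod2* -0.83 (SE 0.16, adjusted p = 0.0214), and both kept their calls. *Tpm2* (-0.15, adjusted p = 0.0815) and *Actc1* (-0.04, adjusted p = 0.687) were not called.

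**Figure D3:**
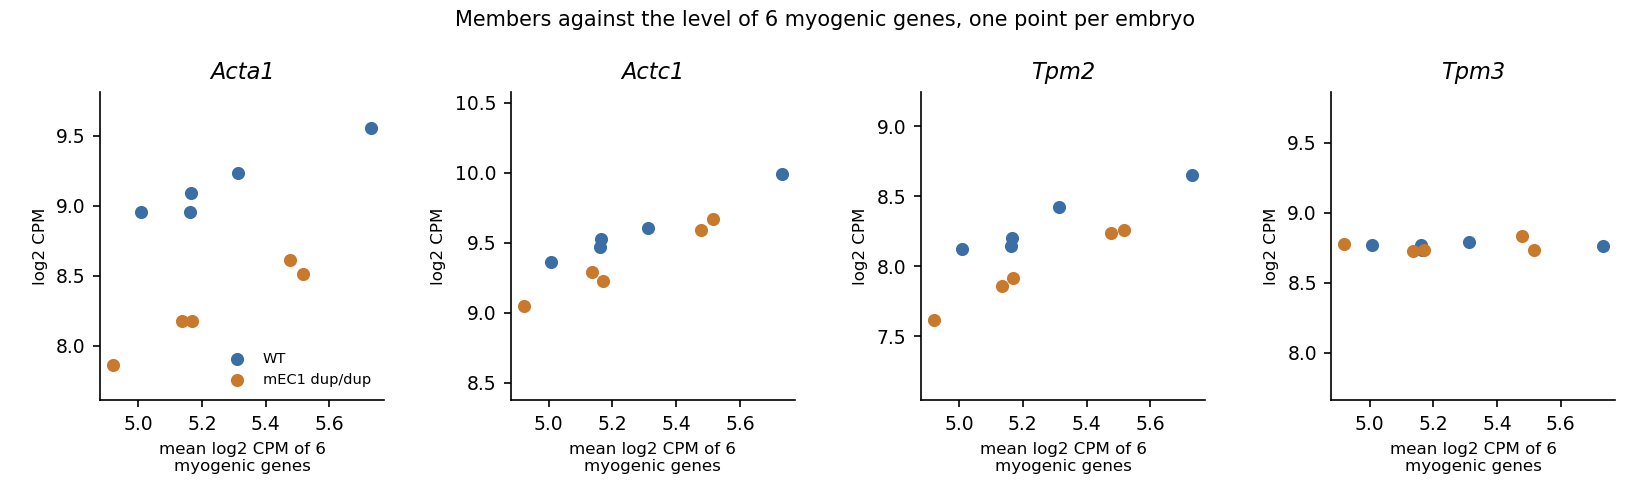
log2 CPM of *Acta1*, *Actc1*, *Tpm2* and *Tpm3* (vertical axes, each spanning the same log2 range) against the mean log2 CPM of 6 myogenic genes (horizontal axes), with each point an embryo. At a like level of the 6 genes, dup/dup embryos lie well below WT for *Acta1*, slightly below for *Actc1* and *Tpm2*, and level with WT for *Tpm3*.

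The genes whose deviations were most like those of each member were named by Pearson correlation over the 10 embryos, among 14083 genes (14084 for *Tmod4*). For *Acta1* these were *Pdlim3* (0.991), *Hrc* (0.989) and *Tpm2* (0.988), for *Actc1* *Des* (0.98), *Actn2* (0.98) and *Mybph* (0.979), and for *Tpm2* *Myl1* (0.993), *Acta1* and *Srl* (0.986). For *Lmod2* they were *Ldb3* (0.96), *Fhl1* (0.951) and *Cavin2* (0.949), and for *Lmod3* *Srl* and *Tceal7* (both 0.97) and *Shox2* (0.966). *Tpm1* was closest to *Rhoq* (0.974), *Map3k7cl* and *Btrc*, and *Tpm3* to *Ahcyl* (0.928), *Tmed1* and *Srp54c*. *Tmod1* was closest to *Dgkb* (0.927), *Btbd17* and *Fkbp4*, and *Tmod4* to *Kptn* (0.929), *Rnaset2b* and *Fbxl4*. No gene was the closest of more than 1 member, and *Acta1* and *Tpm2* were each among the 3 closest to the other.

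The other genes of the same families had smaller log2 fold changes than *Acta1* and *Lmod2*. Of 8 such genes, 1 was called lower and none higher by edgeR (2 were higher at an unadjusted p under 0.05, 2 by DESeq2 and 1 by limma-voom), with a median log2 fold change of 0.01. Over all genes tested edgeR called 1.81% lower and 0.834% higher, and 7.1% were higher at an unadjusted p under 0.05. The cytoplasmic actins *Actb* and *Actg1* had log2 fold changes of 0.10 and 0.09 (edgeR's adjusted p = 0.0955 and 0.175), and *Actb* had 2312 to 2458 CPM in WT and 2534 to 2633 CPM in dup/dup. *Actb* and *Actg1* were called higher with DESeq2 (adjusted p = 0.00534 and 0.0381). The smooth muscle actins *Acta2* (0.12, adjusted p = 0.649) and *Actg2* (0.06, adjusted p = 0.87) and the tropomyosin *Tpm4* (-0.04, adjusted p = 0.671) did not pass the test. With each embryo left out, *Acta2* had 0.052 to 0.209, *Actg2* 0.017 to 0.104 and *Tpm4* -0.061 to -0.023.

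*Tmod3*, the broadly expressed tropomodulin, fell by 10.2%. It had 148, 146, 146, 146 and 148 CPM in WT embryos 1 to 5 and 136, 127, 137, 131 and 128 CPM in dup/dup embryos 1 to 5, without overlap. Its log2 fold change was -0.155 (SE 0.03, edgeR's adjusted p = 0.0235), and its call held in 3 of 10 fits without 1 embryo. The call was also lost without a filter on low counts (-0.149, adjusted p = 0.0603). *Tmod2*, the neuronal tropomodulin, had -0.11 (adjusted p = 0.727) and *Lmod1*, the leiomodin of smooth muscle, had -0.35 (adjusted p = 0.219).

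Among the other genes of the sarcomeric thin filament and its assembly, 17 of 19 listed were tested. Of these 4 were called lower, against 1.81% of all genes tested. *Tnnt3* (log2 fold change -1.06, SE 0.16, adjusted p = 0.00563 from edgeR) and *Tnni2* (-0.94, SE 0.15, adjusted p = 0.00788) are fast skeletal troponins. *Tnnt3* had 75.0 to 108 CPM in WT and 29.0 to 57.0 CPM in dup/dup, so the groups did not overlap. *Neb* encodes nebulin, which runs along the filament (-0.64, adjusted p = 0.0321, called in 3 of the 10 fits without 1 embryo), and *Nrap* a nebulin-related protein of filament assembly (-0.60, adjusted p = 0.0207, called in 7 of 10). All 17 had a log2 fold change below 0, as had 51.2% of all genes tested, with a median of -0.29. *Tnnt3* and *Tnni2* kept their calls in all 10 of those fits.

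**Figure D4:**
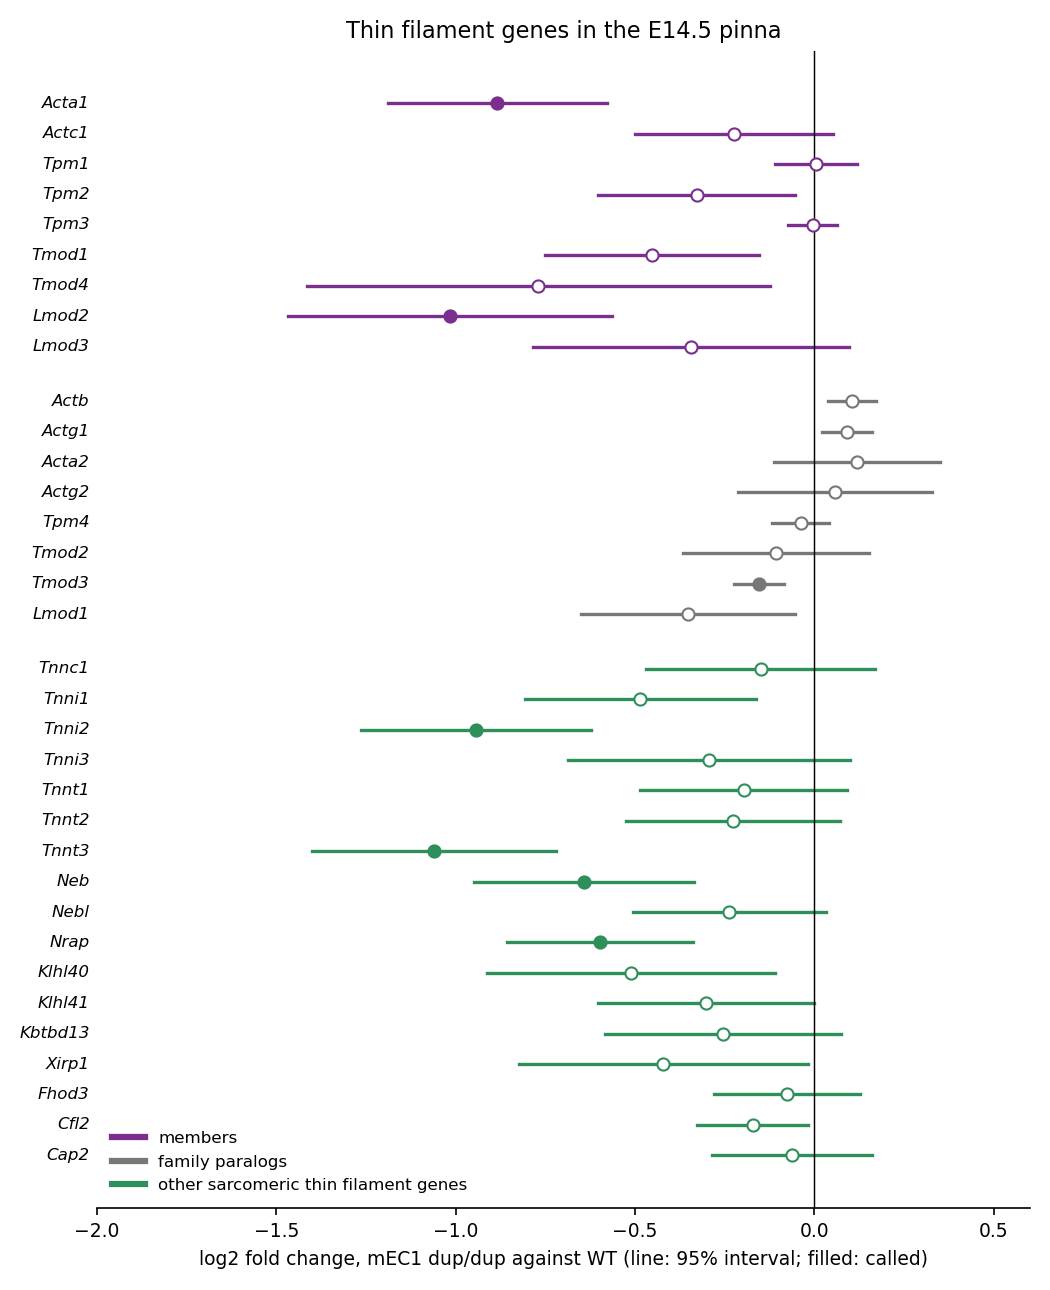
log2 fold change of dup/dup against WT (horizontal axis, 0 marked) with 95% intervals from edgeR for the 9 genes (members), 8 paralogs of their families and 17 other sarcomeric thin filament genes; filled points were called. *Acta1*, *Lmod2*, *Tnni2* and *Tnnt3* lie near -1, and *Tpm1*, *Tpm3* and *Tpm4* lie near 0.

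Neighbouring gene groups are given by their counts. Over all genes tested 1.81% were called lower, and 9.08% were lower at an unadjusted p under 0.05 from edgeR. Of 14 thick filament genes tested, 8 were lower, with a median of -0.55, among them *Myl2* (-1.92), *Myl3* (-1.36) and *Myh8* (-0.90). Of 11 actin turnover and barbed end genes, among them *Capza1* and *Cap1*, none was called by edgeR, DESeq2 or limma-voom and 1 was lower at an unadjusted p under 0.05, with a median of -0.02. Of serum response factor and 5 related factors none was called by any of these tools or had an unadjusted p under 0.05, with a median of -0.035, and *Srf* itself had -0.02. Of 15 genes of myogenic cells only *Myf6*, a myogenic transcription factor, was called (-1.52, adjusted p = 0.00804), with a median of -0.08. At an unadjusted p under 0.05 from edgeR 3 of the 15 were lower and none was higher, the other two being *Pax3* (-0.56) and *Des* (-0.40).

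Muscle other than skeletal muscle also makes some of the 9 genes. Of 11 genes of smooth muscle and pericytes tested, *Rgs5* was lower (-0.50). At an unadjusted p under 0.05 from edgeR 5 of the 11 were lower and none was higher, against 9.08% lower and 7.1% higher over all genes tested. *Des*, which is also in the list of 15 myogenic genes, was among the 5. The summed level of the list was 872 to 1072 CPM in WT and 809 to 987 CPM in dup/dup. *Tagln* was under the filter. Of 6 cardiac genes tested *Myl2* was called lower, which is also counted above among the thick filament genes. At an unadjusted p under 0.05 from edgeR 3 of the 6 were lower and *Nkx2-5* was higher, with all dup/dup embryos above all WT embryos (0.85, adjusted p = 0.111). The 10 listed genes summed to 24.1 to 39.2 CPM in WT and 17.6 to 26.6 CPM in dup/dup, and *Nppa*, *Nppb* and *Myl7* each had at most 10 counts over all libraries. The summed level of the 9 genes was 2428 to 3207 CPM in WT and 1903 to 2496 CPM in dup/dup. The part of smooth muscle in the values of the 9 genes was not tested.

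The calls of *Acta1* and *Lmod2* were not kept when measures that differ between the groups entered the fit, with larger errors. When log2 CPM of *Xist* entered the fit as a covariate, *Acta1* had -0.66 (SE 0.22, edgeR's adjusted p = 0.388) and *Lmod2* -0.86 (SE 0.34, adjusted p = 0.46), and neither was called. When the share of embryonic globins did, they had -1.315 (SE 0.60, adjusted p = 0.898) and -0.94 (SE 0.92, adjusted p = 0.909). That share does not overlap between the genotypes (18.4% to 23.3% in WT and 32.55% to 35.6% in dup/dup), and no gene of the 16426 was called in that fit, so the share and the genotype cannot be told apart in it. *Tmod3*, *Tnnt3*, *Tnni2*, *Neb* and *Nrap* were also without a call in both fits (adjusted p = 0.33 to 0.404 with *Xist*, and 0.898 with the globin share). *Acta1* had -0.89 (SE 0.21) and *Lmod2* -1.17 (SE 0.27) without dup/dup embryos 1 to 3, which had the highest *Xist* counts. The adjusted p was 0.183 each by edgeR, and the *Acta1* and *Lmod2* shares differed by -10.5 and -7.79 percentage points (exact permutation test, p = 0.0476, adjusted 0.143 each). With 5 against 2 embryos there are 21 arrangements and 0.0476 is the smallest p they can give, so the adjusted value says nothing about whether these differences hold.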

How the data were processed

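RNA-seq of E14.5 pinna prominences was used, with 5 libraries per genotype. The deposited values are raw counts per gene that the authors made with fastp, STAR (GRCm39) and featureCounts. The annotation release, strand setting and treatment of multiply aligned reads are not given in the sources used here. The labels name a NEBNext Ultra kit and the methods a TruSeq v2 kit, neither of which marks strand.

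Symbols, exon lengths and positions came from GENCODE M39, which matched 49355 of 53465 genes, and unmatched genes held 0.111% of counts. Counts were filtered with filterByExpr, scaled by TMM and tested by edgeR's quasi-likelihood test (version 4.0.16, R 4.3.3) with genotype as the only term, and p-values were adjusted by Benjamini-Hochberg over 16426 genes. Correlations used log2 CPM with a prior count of 2. Shares were compared by exact permutation tests (scipy 1.17.1). Reads carry no molecular identifiers, so values from low counts have counting error at least. Counts of replicates differed by 2.56 to 18.2 times sampling noise over 20 pairs, so no library was a copy.

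Every member was named, as were all paralogs, the called thin filament genes, up to 3 genes per other list (the largest changes called, or the most abundant where none was) and the 3 genes most like each member. *Srf*, *Pax3*, *Des*, *Nkx2-5*, *Capza1*, *Cap1*, *Tstd2*, *Tpm3-rs7*, *Tagln*, *Nppa*, *Nppb*, *Myl7* and the 6 genes used as a covariate were named outside this rule. Members and lists were chosen with earlier results of these data known. Lists of fibroblasts (2 of 10 lower), perimysium and tendon (3 of 9), chondrocytes (0 of 9), epithelium (5 of 9), endothelium (0 of 6), Schwann cells and neurons (0 of 6) and melanoblasts (0 of 5) were also counted with edgeR. Over all genes tested edgeR called 1.81% lower, and 9.08% were lower and 7.1% higher at an unadjusted p under 0.05. Of the lists at 0, edgeR had 2, 1, 1 and 2 genes lower at an unadjusted p under 0.05, and DESeq2 called 1 gene of melanoblasts. At that p 3 genes of perimysium and tendon were higher and 4 lower, and DESeq2 called 2 of them higher and 3 lower. Of epithelium 8 genes were lower at that p and of fibroblasts 6, and none was higher. Alternatives were other scalings, DESeq2 (1.42.0), limma-voom (limma 3.58.1), filters, thresholds, covariates, the replicate block and each embryo left out. The steps were tested on simulated data.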

Additional observations from a re-analysis of the deposited data

Results flagged for a closer look

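Among 30 groups of 5 embryos tested (the levels of the 9 genes and their 6 shares in each genotype), 2 held an embryo far from the others, where chance gives about 1 in 20 groups. Both concern the *Tpm1* share of the counts on *Tpm1*, *Tpm2* and *Tpm3*. WT replicate 2 was the highest at 42.4%, and its gap to the next embryo was 0.75 of the range of the group. *mEC1* dup/dup replicate 5 was the lowest at 38.5%, with a gap of 0.883 of the range. The limit for 5 samples (Dixon's test, 95%) is 0.71.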

How the results depend on the processing

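*Acta1* kept its direction in every alternative and *Lmod2* did as well. Depth limits *Tmod4* and *Lmod2*, which had the fewest counts of the 9 genes (228 and 778 over all libraries). Over all genes, 297 were called lower and 137 higher. DESeq2 gave 510 and 321, and an adjusted p of at most 0.01 gave 62 and 16, with 1 of the 9 genes. Fits without 1 embryo gave 120 to 476 lower and 34 to 179 higher, and 1 to 2 of the 9 genes. With *Xist* as a covariate 1 gene was lower and 2 were higher, and with the embryonic globin share 0 and 0 by edgeR (793 genes had an unadjusted p under 0.05); both left 0 of the 9 genes. Without *mEC1* dup/dup embryos 1 to 3, the highest in *Xist*, an alternative chosen after seeing the data, 0 were lower and 1 was higher by edgeR (1853 had an unadjusted p under 0.05), with 0 of the 9 genes, and the share differences of -10.5 (*Acta1*) and -7.79 (*Lmod2*) percentage points had an adjusted p of 0.143, where 21 arrangements give no unadjusted p under 0.0476. With the 6 myogenic genes as covariate 4 of the 9 were lower. With all 15 myogenic genes as covariate, also chosen after seeing the data, 2 of the 9 were lower, *Tpm3* had 0.001, *Acta2* was called higher (0.27, adjusted p = 0.0102) and *Tmod3* was not called (adjusted p = 0.0538). The cause of these changes was not tested. Leaving out an embryo did not always lower the counts, since 476 genes were lower and 179 higher without WT embryo 4.

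Same-numbered embryos of the genotypes did not clearly deviate together: the correlation of their deviations across genes averaged 0.231 (-0.0641 to 0.428) over 5 pairs, against -0.0571 and at most 0.359 in other pairs, and 4 of 10 libraries correlated best with their own number. With the replicate block, 487 genes were lower, of which 278 were among those called without it, and *Tmod1* was called beside *Acta1* and *Lmod2* (-0.44, edgeR's adjusted p = 0.0309). Within pairs the exact permutation test of the shares has 32 arrangements and no p under 0.0625, so the differences of -10.7 (*Acta1*) and -7.83 (*Lmod2*) percentage points had an adjusted p of 0.125, as had the *Tpm2* share, which was lower in dup/dup in all 5 same-numbered pairs.

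Covariates also moved the values of genes without a call. With *Xist*, *Actc1* had -0.079, *Tpm2* -0.16, *Lmod3* -0.18, *Tmod1* -0.27 and *Tmod4* -0.83. With the globin share they had -0.65, -0.86, -1.35, -1.23 and -2.18 in that order (SE 0.54 to 1.33). Signs turned for genes near 0. *Tpm1* had -0.087 with *Xist*, -0.53 with the globin share, -0.075 without the 3 embryos and -0.028 to 0.038 with each embryo left out. *Tpm3* had 0.007 with total counts, 0.002 without a filter, 0.06 with *Xist*, 0.028 with the globin share, 0.039 without the 3 embryos and -0.023 to 0.003 with each embryo left out. With the globin share, *Actg1* had -0.012, *Acta2* -0.40 and *Tpm4* 0.006. *Tmod2* had 0.033 with *Xist* and -0.17 to 0.031 with each embryo left out. The *Tpm1* share difference of 2.335 percentage points was 2.03 to 3.31 with each embryo left out, and passed without *mEC1* dup/dup replicate 5 (3.31, exact permutation test, adjusted p = 0.0317). The median of all genes was -0.00757 to 0.00693 over the scalings.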
